A study of Homo sapiens with 6 samples.

Results

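The Kruppel-like factors are transcription factors that bind GC-rich and CACCC sequences through zinc fingers at the carboxy terminus and differ in the amino-terminal part that recruits partners. Klf2, Klf4, Klf6 and Klf7 carry activating domains, Klf3 recruits the corepressor CtBP, and Klf9, Klf10, Klf11, Klf13 and Klf16 recruit the corepressor Sin3, a scaffold that holds histone deacetylases. In blood cells Klf1 drives globin genes in the erythroid lineage, Klf2 keeps lymphocytes quiescent and Klf4 acts in monocytes. The rule for this group of genes named 10 factors (Klf2, Klf3, Klf4, Klf6, Klf7, Klf9, Klf10, Klf11, Klf13 and Klf16), and rows were taken by gene name. Of these, 9 were among the 22413 genes analysed. Klf4 was not analysed here.

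The cells were BaF3-T315I, a murine line derived from IL-3-dependent pro-B cells and stably transfected with BCR-ABL carrying the T315I mutation, so every sample, controls included, carried the mutant oncogene. The control group held 3 samples labelled only as control, and the I13 group held 3 samples exposed to 1.1 µM of I13, a histone deacetylase inhibitor, for 48 h. Whether the line is a single clone, how long the controls were kept and which vehicle they received are not given in the sources used here. Levels are FPKM, that is, fragments scaled to gene length and sequencing depth, and they can be compared between genes.

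The FPKM could be turned back into whole fragments, which gave the depth of each library. Control replicates 1, 2 and 3 had 17722950, 17632514 and 17622311 mapped fragments. For I13 replicates 1, 2 and 3 the totals were 17623236, 16762119 and 17506309. The comparison of I13 with control asked which genes the inhibitor changed in cells with the mutant kinase. It used limma on log2(FPKM + 0.1) for the 12163 genes that averaged 0.5 FPKM or more, and all fold changes below are on that scale, which understates the change of low genes. A gene was called where its Benjamini-Hochberg adjusted p was below 0.05 and its log2 fold change was past 0.58 in either direction. The study describes its results in general as drawn from independent experiments, but does not tie the sequenced samples to separate cultures. The p-values therefore measure the spread between these samples, which may be technical.

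The genes of the labelled line were found. The IL-3 receptor genes Csf2rb and Csf2rb2, which encode its beta subunits, lay at 329 ± 118 and 286 ± 110 FPKM in the control and at 588 ± 218 and 572 ± 194 FPKM after I13 (SD, n = 3 each). Il3ra, the alpha subunit, Ptprc, the leukocyte antigen CD45, and Jak2 lay between 10.6 and 15.2 FPKM in the group means. Of 5 T cell markers, 4 were analysed, and they summed to at most 0.394 FPKM in any sample, with Cd3e and Cd3g at 0 in 2 and 3 of the controls. Of 5 fibroblast markers, only Col1a1 was analysed, at no more than 0.130 FPKM. The macrophage list was not at 0. Its 5 genes summed to 43.5, 23.0 and 46.4 FPKM in control replicates 1, 2 and 3 and to 78.8, 53.0 and 87.2 FPKM in the I13 replicates. Adgre1, which encodes F4/80, made up between 79.0% and 91.5% of that sum. The defining receptor gene Csf1r stayed at or below 0.0702 FPKM and Mrc1 at or below 0.0267 FPKM. Cd68 went from 4.08 to 5.83 FPKM in the means, with overlapping groups. Lyz2 went from 1.55 to 2.82 FPKM in the means, and its groups did not overlap. The macrophage sums moved with I13, and their part in the results for the factors was not tested.

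Of the 9 factors analysed, 7 reached the mean FPKM needed for the test, namely Klf6, Klf7, Klf9, Klf10, Klf11, Klf13 and Klf16. None of the 7 was called, against 0.0411% of all genes tested, and none had an unadjusted p below 0.05, against 18.6% of all genes tested. Klf6 alone had a log2 fold change past 0.58 in size, as did 9.41% of all genes tested. I13 against control gave a log2 fold change of above 0 for 6 of the 7 and below 0 for Klf13. Its median was 0.23 over the 7, beside -0.005 over all genes tested. The median absolute log2 fold change of the 7 was 0.23, beside 0.19 over all genes tested. In none of the 7 did the control and I13 values stay apart, whereas they did in 25.2% of all genes tested. In bulk samples, less RNA per cell and fewer cells with the RNA cannot be told apart.

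**Figure D1:**
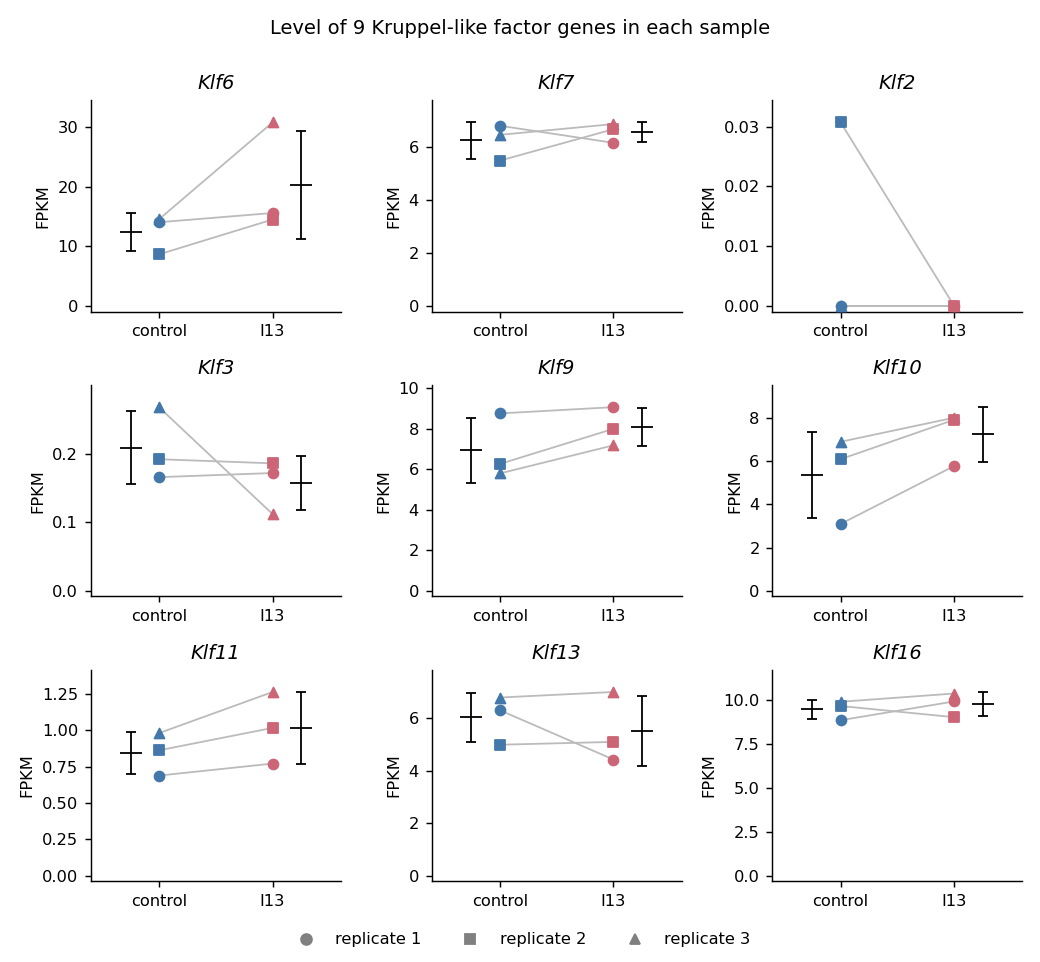
FPKM of the 9 factors in each sample (vertical axes, each with its own scale, zero included), control in blue and I13 in red, grey lines joining samples of the same replicate number, and black bars giving the mean and SD of each group except for Klf2. Klf6 stands out in I13 replicate 3 at 30.8 FPKM, while Klf2 has a value above 0 in control replicate 2 alone.

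Klf6, an early-response factor of the activating group, had the highest mean FPKM of the factors over the 6 samples and the largest log2 fold change. In control replicate 2 alone Klf16 was higher, at 9.65 FPKM. For Klf6 the controls 1, 2 and 3 held 14.1, 8.67 and 14.5 FPKM, and the I13 samples 1, 2 and 3 held 15.6, 14.5 and 30.8 FPKM. I13 replicate 3 lay at about the sum of the other I13 samples, control replicate 2 was the lowest of the 6, and I13 replicate 2 overlapped control replicate 3. The group means were 12.4 ± 3.26 and 20.3 ± 9.11 FPKM (SD, n = 3 each). The groups differed by a log2 fold change of 0.66 (standard error, SE, 0.32, 95% interval -0.10 to 1.41, limma adjusted p = 0.322). These values rested on 671 to 2369 fragments per library. Without I13 replicate 3 the log2 fold change was 0.31, and without control replicate 2 it was 0.42.

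The samples share replicate numbers, and the deviations of same-numbered samples from their group means correlated at 0.145, 0.301 and 0.219. The fit was therefore also made with the replicate number as a block. No source says that a number marks a shared batch, and that check used these same values. All results with the block rest on this assumed pairing. In that fit 1.89% of all genes tested were called, and none of the 7 factors was. An unadjusted p below 0.05 was found there for Klf6 and Klf10, 2 of the 7, both with higher means, and for 28% of all genes tested, 13.2% with higher means. Klf6 was 1.11, 1.68 and 2.12 times as high after I13 as in the control of the same number for replicates 1, 2 and 3, and its interval with the block was 0.21 to 1.10, with an adjusted p of 0.0931 from limma. When the block was kept and the recovered fragments were tested by voom, where 4.14% of all genes tested were called, Klf6 was the 1 factor called, with a log2 fold change of 0.67 and an adjusted p of 0.026 from limma. Klf6 was called in no other fit of those run. Klf6, Klf9, Klf10 and Klf11 were higher after I13 in all 3 pairs, which was the case for 24.1% of all genes tested.

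**Figure D2:**
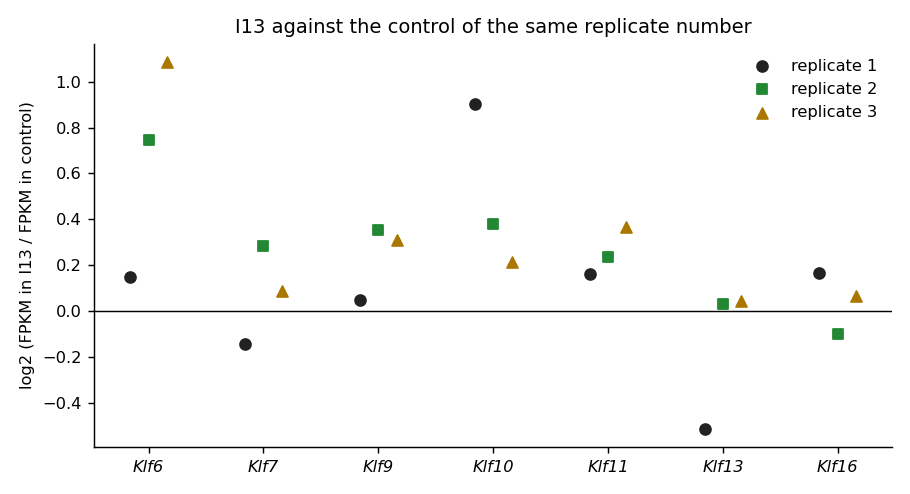
The log2 ratio of FPKM in each I13 sample to the control of the same replicate number (vertical axis) for the 7 factors tested (horizontal axis), with a symbol for each replicate number. Klf6, Klf9, Klf10 and Klf11 lie above 0 in all 3 pairs, Klf6 is highest in replicate 3, and Klf10 is highest in replicate 1.

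Klf7, the other activating factor that could be tested, is best known from neurons and from lymphoid leukemia. It was listed at 6.81, 5.49 and 6.46 FPKM in the controls and at 6.16, 6.68 and 6.87 FPKM after I13. The groups overlapped, with control replicate 2 the lowest of the 6 samples. On the log2 scale the change was 0.07 (SE 0.12, limma adjusted p = 0.766), and its 95% interval of -0.20 to 0.35 did not reach the fold change threshold on either side.

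Klf2, a quiescence factor of lymphocytes, was listed at 0 in 5 samples and at 0.0307 FPKM in control replicate 2, which corresponds to 1 fragment. A count of 0 allows up to 3 fragments, or 0.0945 to 0.0999 FPKM across the libraries, for counting error only. No fold change can be given for it, and it was below the level needed for the test.

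Klf3, the repressor that works through CtBP, was also below that level. It was listed at 0.166, 0.192 and 0.268 FPKM in the controls and at 0.172, 0.186 and 0.112 FPKM after I13, from 22 to 53 fragments per library. The highest value was in control replicate 3, the lowest was in I13 replicate 3, and the rest overlapped. With all 22413 genes in the fit, its log2 fold change was -0.26 (SE 0.28, limma adjusted p = 0.709). CtBP itself is given with the cofactors.

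Among the factors that recruit Sin3, Klf10, also known as the early gene induced by TGF-beta, had the largest log2 fold change. It was listed at 3.09, 6.09 and 6.90 FPKM in the controls and at 5.78, 7.92 and 8.01 FPKM after I13. Control replicate 1 was less than all other samples, and I13 replicate 1 lay below control replicates 2 and 3. I13 against control gave a log2 fold change of 0.49 (SE 0.30, 95% interval -0.21 to 1.19, limma adjusted p = 0.415). It was 0.14 without control replicate 1. Within pairs the ratios of I13 to control were 1.87, 1.30 and 1.16, the reverse of the order seen for Klf6, and the adjusted p with the block was 0.112 from limma.

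Klf9, a factor induced by glucocorticoids and thyroid hormone, was listed at 8.75, 6.26 and 5.79 FPKM in the controls and at 9.06, 7.99 and 7.18 FPKM after I13. In both groups replicate 1 was highest and replicate 3 lowest, so that the groups overlapped although each I13 sample lay above its own control. The groups differed by a log2 fold change of 0.23 (SE 0.17, 95% interval -0.18 to 0.65, limma adjusted p = 0.504). Klf11, a relative of Klf10 in TGF-beta signalling, was just above the filter, at 0.689, 0.862 and 0.981 FPKM in the controls and 0.771, 1.02 and 1.26 FPKM after I13, from 53 to 96 fragments. Here replicate 3 was highest and replicate 1 lowest in both groups. Its log2 fold change was 0.23 (SE 0.27, limma adjusted p = 0.687), and the 95% interval, from -0.41 to 0.88, was the second widest in the Sin3 group after that of Klf10.

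Klf13, known for inducing the chemokine gene Ccl5 in T cells, was the 1 tested factor with a lower mean after I13. It was listed at 6.30, 4.99 and 6.78 FPKM in the controls and at 4.42, 5.09 and 6.99 FPKM after I13. Only the pair of replicate 1 went down, with a ratio of 0.702, while the other ratios were 1.02 and 1.03. On the log2 scale the change was -0.14 (SE 0.20, 95% interval -0.60 to 0.32, limma adjusted p = 0.730). Klf16 was the steadiest factor, at 8.84, 9.65 and 9.89 FPKM in the controls and 9.91, 9.01 and 10.4 FPKM after I13. Its log2 fold change was 0.04 (SE 0.10, limma adjusted p = 0.845), with a 95% interval of -0.19 to 0.28 that lay inside the fold change threshold.

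In order of their mean FPKM over the 6 samples, the factors were Klf6 (16.4), Klf16 (9.61), Klf9 (7.50), Klf7 (6.41), Klf10 (6.30), Klf13 (5.76), Klf11 (0.931), Klf3 (0.182) and Klf2. The order of Klf7, Klf10 and Klf13 differed between the groups. Their means were 6.25, 5.36 and 6.02 FPKM in the controls and 6.57, 7.23 and 5.50 FPKM after I13. From Klf6 to Klf13 each factor overlapped with the next in its range over the samples. Klf6 and Klf16 nevertheless lay above every value of Klf7, Klf10 and Klf13, and Klf16 was above Klf9 in 6 of 6 samples. Klf13 and Klf11, Klf11 and Klf3, and Klf3 and Klf2 did not overlap. Klf6 lay at the 71.6th percentile of the genes tested by mean FPKM, Klf11 at the 9.60th, and the other 5 between the 43.0th and the 57.0th.

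The sum of squares of each factor over the 6 samples was divided into parts for condition, for replicate number and for the rest. The part between replicate numbers, on 2 degrees of freedom, had a median of 61.3% over the 7 factors and 42.2% over all genes tested. The part between conditions, on 1 degree of freedom, had a median of 20.3% over the 7 factors and 25.9% over all genes tested. Klf6 had the largest part between conditions (38.0%) and Klf16 the smallest (7.70%). For Klf11 77.3% lay between replicate numbers and 2.39% was left over. For Klf7 the rest was the largest part, at 61.3%.

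**Figure D3:**
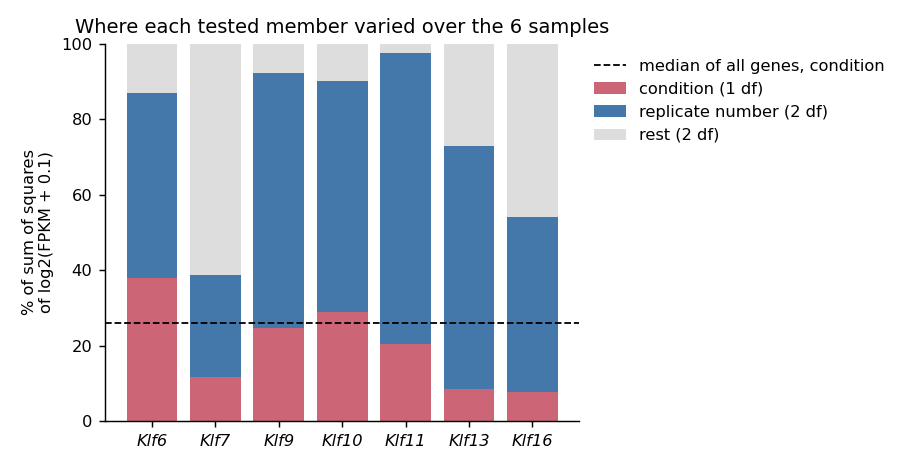
Share of the sum of squares of log2(FPKM + 0.1) over the 6 samples (vertical axis, percent) that lay between conditions (red), between replicate numbers (blue) and in the rest (grey) for the 7 factors tested. The dashed line is the median part between conditions over all genes tested, 25.9%, which Klf6 and Klf10 exceed.

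The tested genes whose log2(FPKM + 0.1) followed Klf6 most closely over the 6 samples were Cd74, the invariant chain of MHC class II, Akirin1, a nuclear protein, and Manf, a factor of the endoplasmic reticulum stress response, with Pearson correlations of 0.995, 0.992 and 0.992. Cd74 was listed at 3.40, 1.17 and 3.14 FPKM in the controls and at 4.19, 4.15 and 17.1 FPKM after I13, so it shared the high I13 replicate 3 and the low control replicate 2 of Klf6. Klf10 was followed by Twsg1, a modulator of BMP signalling, Fnip2, a partner of folliculin, and Mir7687, with correlations of 0.997, 0.994 and 0.986. Mir7687 had at most 2 fragments in any library. These are the highest of 12162 correlations each, over 6 samples that share libraries and depth, and describe likeness only.

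Klf1 and Sp3 had higher and Sp2 lower values after I13 in every sample, among the rest of the family. Of the 16 other KLF and Sp genes of the list, 8 were analysed and 6 were tested, and 3 of the 6 had an unadjusted p below 0.05, against 18.6% of all genes tested. The groups did not overlap in 3 of the 6, against 25.2% of all genes tested. None of the 6 was called without the block or with it, against 0.0411% and 1.89% of all genes tested. Their median log2 fold change was 0.09, beside -0.005 over all genes tested. Klf1, the erythroid factor, was listed at 6.34, 8.38 and 10.4 FPKM in the controls and at 14.4, 16.0 and 13.5 FPKM after I13. Every I13 sample lay above every control. I13 against control gave a log2 fold change of 0.82 (SE 0.18, 95% interval 0.39 to 1.25, limma adjusted p = 0.113 unblocked and 0.0591 blocked). With the block and voom Klf1 was called (limma adjusted p = 0.0162). Sp2, a ubiquitous relative that binds GC boxes, was listed at 12.9, 12.1 and 10.02 FPKM in the controls and at 8.53, 8.14 and 6.71 FPKM after I13, again with no overlap. Its log2 fold change of -0.578 stopped just short of the fold change threshold (SE 0.14, limma adjusted p = 0.120), and with the block the adjusted p was 0.0384, where 2.99% of all genes tested had an adjusted p below 0.05. With the block and voom Sp2 was called too, at a log2 fold change of -0.584 (limma adjusted p = 0.00816). Sp3, which binds the same sites as Sp1 and can repress as well as activate, had the highest mean of the family over the 6 samples, although Sp1 had the higher mean in the controls (21.1 FPKM). Sp3 went from 19.5 ± 1.19 to 26.04 ± 2.92 FPKM (SD, n = 3 each), or 0.41 as a log2 fold change (limma adjusted p = 0.137). Sp1, Sp4 and Klf8 overlapped between the groups, with log2 fold changes of -0.22, 0.11 and 0.07, and Sp7 and Sp9 were listed at no more than 0.156 FPKM. Whether any of these changes differed from those of the 7 factors was not tested.

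**Figure D4:**
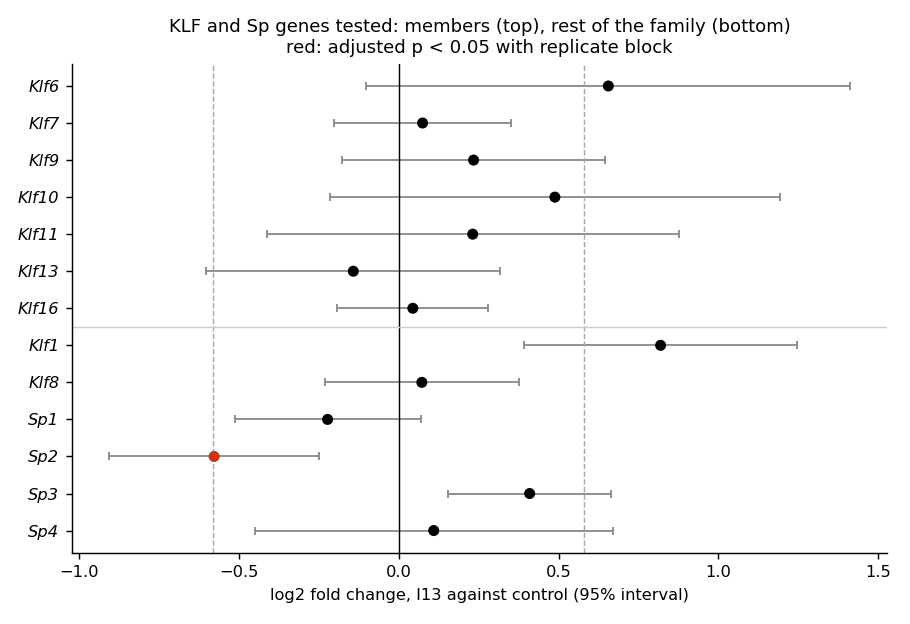
Log2 fold change of I13 against control with its 95% interval (horizontal axis) for the 7 factors tested (above the grey line) and the 6 other KLF and Sp genes tested (below it), with the thresholds of 0.58 as dashed lines and red for an adjusted p below 0.05 with the replicate block. The intervals of Klf1, Sp2 and Sp3 leave out 0, those of the 7 factors all include it, and Sp2 alone is red.

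The erythroid markers were read beside Klf1. Of 6 markers, 5 were analysed, Klf1 among them, and 3 were tested. The 5 summed to 7.62, 9.16 and 11.1 FPKM in the controls and to 20.2, 24.3 and 15.9 FPKM after I13, and Klf1 made up between 65.8% and 94.3% of that sum. The alpha globin gene Hba-a1 was listed at 1.18, 0.210 and 0.559 FPKM in the controls and at 5.66, 2.94 and 2.11 FPKM after I13, with no overlap. Its log2 fold change was 2.40 (SE 0.56, limma adjusted p = 0.116), and with the block it was called (limma adjusted p = 0.0384). The Hba-a1 values rested on only 3 to 81 fragments per library. The beta globin gene Hbb-bt was listed at 4.58 FPKM in I13 replicate 2 and at or below 0.161 FPKM in the other samples. The part of these markers in the values of Klf1 was not tested.

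Of 18 cofactors of the factors, all were tested. Those with an unadjusted p below 0.05 were 6, all with a lower mean after I13, against 10.8% of all genes tested in that direction. Without the block none was called, against 0.0411% of all genes tested. The groups did not overlap in 6, again all lower, against 15.4% of all genes tested in that direction. With the block 3 had an adjusted p below 0.05, all lower, against 1.24% of all genes tested in that direction. Of the 18, 1 was called with the block, against 1.89% of all genes tested. With the block and voom 1 was called too, against 4.14%. The median log2 fold change of the 18 was -0.11, beside -0.005 over all genes tested. Ctbp1, the corepressor that Klf3 and Klf8 bind, was listed at 52.9, 52.8 and 53.3 FPKM in the controls and at 38.3, 39.1 and 41.0 FPKM after I13. All I13 samples were lower, and the controls were within 1 FPKM of each other. The groups differed by a log2 fold change of -0.43 (SE 0.08, limma adjusted p = 0.0989 unblocked and 0.0447 blocked). Ctbp2, its paralog, went from 4.18 to 4.09 FPKM in the means. Kat2a, an acetyltransferase, went from 47.5 ± 4.17 to 34.3 ± 3.21 FPKM (SD, n = 3 each), or -0.47 as a log2 fold change (limma adjusted p = 0.115 unblocked and 0.044 blocked). Rbbp4, a histone-binding subunit, had a log2 fold change of -0.24 (limma adjusted p = 0.199).

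For the Sin3 complex no member had an unadjusted p below 0.05 other than Rbbp4. Sin3a and Sin3b, the scaffolds, went from 20.3 to 18.6 and from 17.9 to 17.2 FPKM in the means, with log2 fold changes of -0.13 and -0.06 and 95% intervals of -0.35 to 0.09 and -0.28 to 0.16. Hdac1 and Hdac2, their deacetylases, had log2 fold changes of -0.05 and 0.07, and Hdac3, another deacetylase, had -0.23 (limma adjusted p = 0.295). Rbbp7 was the most abundant cofactor, at 184 ± 22.3 and 180 ± 22.0 FPKM (SD, n = 3 each). Crebbp, the acetyltransferase CBP, was lower in every I13 sample than in every control, with a log2 fold change of -0.31 (limma adjusted p = 0.257). The acetyltransferases Ep300, its paralog, and Kat2b had log2 fold changes of -0.10 and 0.05, with overlapping groups.

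**Figure D5:**
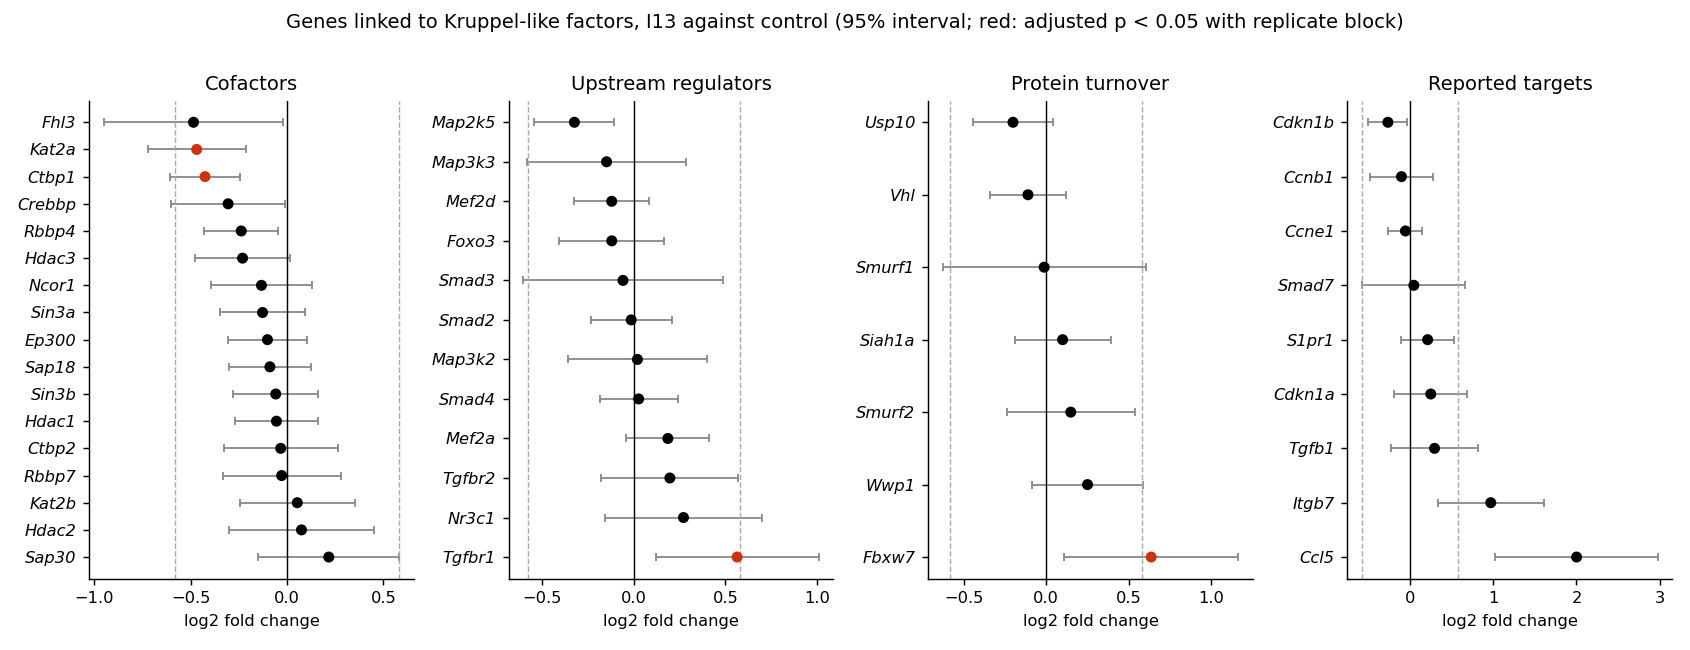
Log2 fold change of I13 against control with its 95% interval (horizontal axes, which differ in scale) for tested cofactors, upstream regulators, protein turnover genes and reported targets of the factors, with the thresholds of 0.58 as dashed lines and red for an adjusted p below 0.05 with the replicate block. Red points are Kat2a, Ctbp1, Tgfbr1 and Fbxw7, and Ccl5 lies farthest from 0.

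Of 15 upstream regulators known to induce KLF genes, 14 were analysed and 12 were tested. Among them, 1 had an unadjusted p below 0.05 with a higher mean and 1 with a lower mean, against 7.79% and 10.8% of all genes tested, and none was called. Their median log2 fold change was 0.002. Tgfbr1, the type I receptor of the TGF-beta pathway that induces Klf10, was listed at 7.31, 9.10 and 10.7 FPKM in the controls and at 10.5, 14.7 and 15.0 FPKM after I13. I13 replicate 1 lay just below control replicate 3, so the groups overlapped. On the log2 scale the change was 0.56 (SE 0.19, limma adjusted p = 0.191 unblocked and 0.0447 blocked). The study itself names Tgfbr1 and Ctbp1 from these samples, so they are not independent choices. Tgfbr2, Smad2, Smad3 and Smad4 had log2 fold changes between -0.06 and 0.20. Map2k5, the kinase above ERK5 in the route to Klf2 and Klf4, went from 16.6 ± 1.13 to 13.2 ± 0.494 FPKM (SD, n = 3 each), or -0.32 as a log2 fold change (limma adjusted p = 0.153). Mapk7, which encodes ERK5, and Foxo1, an inducer of Klf2, were listed at 0 in 5 of the 6 samples.

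Of 7 genes that act on the stability of KLF proteins, all were tested, 1 had an unadjusted p below 0.05, against 18.6% of all genes tested, and none was called, against 0.0411%. Their median log2 fold change was 0.10. Fbxw7, a ubiquitin ligase subunit whose substrates include Klf2 and Klf5, was listed at 15.7, 9.14 and 15.3 FPKM in the controls and at 22.3, 17.0 and 21.9 FPKM after I13. Each group had its lowest value in replicate 2, and the groups did not overlap. I13 against control gave a log2 fold change of 0.64 (SE 0.22, limma adjusted p = 0.205), and with the block it was called (limma adjusted p = 0.0477). Without control replicate 2 the unblocked log2 fold change of Fbxw7 was 0.384. The deubiquitinase gene Usp10 was the most abundant of the 7 over the 6 samples, although Fbxw7 had the higher mean after I13 (20.4 against 16.8 FPKM). Usp10 had a log2 fold change of -0.20 (-0.131 without control replicate 2), and Wwp1, a ligase for Klf2 and Klf5, had 0.25.

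Of 19 genes known as KLF targets in other cells, 17 were analysed and 10 were tested. Their median log2 fold change was 0.13, and 2 had an unadjusted p below 0.05 with a higher mean and 1 with a lower mean, against 7.79% and 10.8% of all genes tested. None was called without the block or with it, against 0.0411% and 1.89% of all genes tested. Ccl5, the chemokine gene that Klf13 induces in T cells, was listed at 0.882, 0.354 and 0.768 FPKM in the controls and at 3.25, 4.10 and 1.67 FPKM after I13, with no overlap. Its log2 fold change was 2.00 (SE 0.41, limma adjusted p = 0.109), while Klf13 itself had -0.14. The Ccl5 values rested on only 6 to 66 fragments per library. Itgb7, an integrin gene that Klf2 regulates in lymphocytes, was listed at 13.8, 12.8 and 18.6 FPKM in the controls and at 20.7, 43.3 and 27.8 FPKM after I13, a log2 fold change of 0.97 (SE 0.27, limma adjusted p = 0.145). With the block and voom both Ccl5 and Itgb7 were called, at limma adjusted p = 0.0201 and 0.018. S1pr1, another lymphocyte target of Klf2, had a log2 fold change of 0.21 with overlapping groups. The cell cycle inhibitor Cdkn1a, a target of Klf4 and Klf6, was the most abundant target, at 136, 97.5 and 139 FPKM in the controls and 130, 131 and 182 FPKM after I13. Like Klf6, it was lowest in control replicate 2 and highest in I13 replicate 3. Csf2rb, Csf2rb2, Il3ra and Cd68 were too, so that pattern was not particular to Klf6 and Cdkn1a. The log2 fold change of Cdkn1a was 0.25 (limma adjusted p = 0.504). Without control replicate 2 that value was 0.084, and without I13 replicate 3 it was 0.089. Cdkn1b, another inhibitor, had a log2 fold change of -0.27 (limma adjusted p = 0.223). Tgfb1, a target of Klf6, had 0.29, and Smad7, a target of Klf10 and Klf11, had 0.05.

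With any 1 pair of same-numbered samples left out, the blocked limma adjusted p of Fbxw7, Hba-a1, Sp2, Ctbp1, Kat2a and Tgfbr1 was no longer below 0.05. Their lowest values in those fits were 0.0777, 0.0788, 0.0792, 0.0792, 0.0762 and 0.0782 in the same order.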

How the data were processed

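mRNA of 3 control and 3 I13 samples of BaF3-T315I was sequenced from stranded libraries, and groups and replicate numbers come from the labels. The authors deposited FPKM values per gene and sample, with no pooling. The submitters' processing notes name Trimmomatic, HISAT2, HTSeq, Cufflinks and hg38 without versions or roles, and the labels name the organism as human, but the genes listed have mouse identifiers, so the values were used as mouse genes. Whether counting used the strand is not given in the sources used here, so fragments of overlapping genes may be shared. No mouse reference was used, so no coordinates or sequences are given. No column of per-sample values was left without a sample.

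Fragments were recovered as the whole numbers that, with the smallest whole gene length of at least 30 bases, give the FPKM of all samples within 0.03 fragments, which held for 22412 genes and failed for 1. Precision for low genes is set by these fragments, and limits for a count of 0 cover counting error only. limma 3.58.1 in R 4.3.3 was run with eBayes and a trend, and the fit was tested on simulated data. The simulation had no differences between replicate numbers and the same setting of spread for every gene. It therefore does not measure the error rate or power of the fits on these samples. The correlations of the deviations of same-numbered samples from their group means were 0.145, 0.301 and 0.219, all above 0.1, so the numbers in the labels were taken to pair the samples. No source says that a number marks a shared batch, and the check used the same values as the fits, so the pairing is an assumption.

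The members and lists were chosen with earlier results of these data known, and the lists are hand-written. All members were named. Of each other list, up to 4 genes with the lowest p among those with an unadjusted p below 0.05 or a log2 fold change past 0.58 in size were named, with the most abundant gene. Some list genes that enter the counts and sums are not reported here by name and are not plotted. Other list genes are given as values, and Klf8, Sp1, Sp4, Crebbp, the Sin3 complex, the SMAD genes and other relatives named in the text were added for context after their values were seen. Alternatives changed the pseudocount, filter, scaling, eBayes settings, block, test (voom on recovered fragments) and samples. Python 3.11.15 with matplotlib 3.10.9 made the plots.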

Additional observations from a re-analysis of the deposited data

How the results depend on the processing

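Klf2, Klf3 and Klf11 rested on at most 96 fragments a library, and each group had 3 samples. Unblocked, 4 genes were called higher and 1 lower. The counts were 2 and 0 under quantile normalization, under median-ratio scaling and with 0.01 as the pseudocount. In the untrended eBayes fit and in the unfiltered fit, 3 genes were called lower. With the replicate block, 166 genes were called higher and 64 lower, and with the block and voom on recovered fragments 375 and 128, with 1 factor, Klf6 (log2 fold change 0.668), past both thresholds. The block by itself changed the call of none of the 7 factors. When 1 sample was left out, the counts of genes and of factors called ran from 0 to 0, with fewer samples in the fit. With the block and 1 pair left out, genes called higher ran from 0 to 78 and lower from 0 to 5, and no factor was called. The median log2 fold change of the factors, 0.231, was 0.125 with a pseudocount of 1 and 0.159 with quantile normalization, for which the cause was not tested. It was 0.074 without a filter, which adds Klf2 and Klf3, and 0.154 with a filter of 1 FPKM, which drops Klf11. It ran from 0.076 to 0.219 when 1 sample was left out. Of the 7 factors, Klf6, Klf9, Klf10 and Klf11 kept a log2 fold change above 0 under all 21 alternatives that gave one. When 1 sample was left out, Klf9 ran from 0.118 (without control replicate 3) to 0.412 (without control replicate 1), and Klf11 from 0.076 (without I13 replicate 3) to 0.399 (without I13 replicate 1), with 0.108 without control replicate 1. Klf7 ran from -0.015 to 0.138, Klf13 from -0.325 to -0.001 and Klf16 from -0.003 to 0.10 when 1 sample was left out. With the block and 1 pair left out, Klf7 ran from -0.027 to 0.182, Klf13 from -0.235 to 0.037 and Klf16 from -0.015 to 0.115. Rbbp7, at -0.028, was 0.001 with the FPKM rescaled to TPM, ran from -0.115 to 0.077 when 1 sample was left out, and from -0.093 to 0.019 with the block and 1 pair left out. The log2 fold change of Ccl5, 2.00, was 1.227 with a pseudocount of 1 and 1.398 with the block and pair 2 left out. That of Hba-a1, 2.40, was 1.437 with a pseudocount of 1. That of Itgb7, 0.97, was 0.582 with the block and pair 2 left out.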

Other observations

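The FPKM of the 9 factors analysed summed to 48.7, 42.2 and 51.6 in control replicates 1, 2 and 3 and to 51.9, 52.4 and 71.6 in I13 replicates 1, 2 and 3. Klf6 made up between 20.5% and 30.1% of that sum in 5 of the samples and 43.0% in I13 replicate 3. The 8 other KLF and Sp genes analysed summed to 65.2, 68.5 and 68.6 FPKM in the controls and to 78.2, 76.1 and 67.1 FPKM after I13, and Sp3 made up between 26.8% and 37.6% of that sum. These sums were not tested.

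The cytokine receptor genes of the line were read with the same fits. Csf2rb2 was called with the block (log2 fold change 1.02, limma adjusted p = 0.0312), as was Csf2rb (0.83, limma adjusted p = 0.0313), and Adgre1 likewise (1.05, limma adjusted p = 0.0308). The adjusted p of the same genes without the block was 0.165, 0.22 and 0.18. With the block, all of these calls were kept without pair 1 and lost without pair 2 (limma adjusted p = 0.209, 0.227 and 0.209) and without pair 3 (0.0788 each). Without the block, the log2 fold change of Csf2rb was 0.546 when I13 replicate 3 was left out, and that of Adgre1 was 0.685 when control replicate 2 was left out. Csf2rb was listed at 286, 239 and 463 FPKM in the controls and at 448, 477 and 838 FPKM after I13, so control replicate 3 overlapped I13 replicate 1. Bcr, the partner gene of the fusion as the mouse locus lists it, was at 4.01, 3.82 and 5.38 FPKM in the controls and at 2.10, 2.67 and 3.73 FPKM after I13. Its log2 fold change was -0.64 (limma adjusted p = 0.211 unblocked and 0.0623 blocked), and it was called with the block and voom (-0.646, limma adjusted p = 0.0112). Whether fragments of the transfected BCR-ABL enter the Bcr values is not given in the sources used here, so they are no measure of the oncogene. Lyz2, which encodes a lysozyme of myeloid cells, had a log2 fold change of 0.76 (limma adjusted p = 0.202) and 0.473 without I13 replicate 2. Ptprc and Jak2 had 0.44 and 0.37.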
